A study of Mus musculus with 52 samples.

Results

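The nuclear genes for the subunits of oxidative phosphorylation were followed across 8 tissues of wild-type mice and of mice without the Tug1 long noncoding RNA locus. The members were the protein-coding genes whose names begin with Ndufa, Ndufb, Ndufc, Ndufs or Ndufv and a number, with Uqcr, with Cox and a digit from 4 to 8, or with Atp5, together with Sdha, Sdhb, Sdhc, Sdhd and Cyc1. These were 84 of the 20138 protein-coding genes listed, with 35 in complex I, 4 in complex II, 9 in complex III, 20 in complex IV and 16 in complex V. Ndufa4 and its paralog Ndufa4l2 were counted with complex IV, since Ndufa4 is a subunit of cytochrome c oxidase despite its name. The name rule also takes in 3 genes that are not stoichiometric subunits (Ndufa4l2, Cox7a2l and Atp5s) and leaves out Ndufab1, Usmg5 and 2010107E04Rik.

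Tug1-/- mice carried the Tug1_tm1.1Vlcg allele, in which lacZ takes the place of the gene body and the promoter and the first exon remain. By the labels, the mice of this series used here were male on a mixed C57BL/6J/129S6 background. For testes the labels give it as without a neomycin cassette in wild type and as Neo, LacZ in Tug1-/- and rescue. Rescue mice were Tug1-/- mice with tg(Tug1), a doxycycline-switched transgene for a Tug1 isoform without part of the 5′ region, and CAGs-rtTA3, a driver that is not restricted to a cell type, and they were fed doxycycline. Testes were profiled with 4 samples of each genotype and 3 of rescue, prostate with 3 wild-type and 2 Tug1-/- samples, and 3 of each genotype were used for spleen, liver, heart, eyes and for MEFs, fibroblasts cultured from embryos. For these non-testes tissues the labels give no neomycin cassette in either genotype, and the MEFs were primary cells of littermate embryos at passage 2. The brain values come from libraries outside this series, whose number is not used here and for which its labels give neither sex nor background. The tissues were from adult mice whose ages are not printed here. Every level below is a group mean in transcripts-per-million (TPM), in which reads are divided by the length of the gene. The lengths used are not given in the sources used here, and a comparison between members, or a share of a family, rests on them. Values of single samples and the authors' own comparisons were not used here, so each difference below is a description of 2 means, given with no replicate error, interval or test.

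Oxidative phosphorylation turns the energy of NADH and succinate into ATP at the inner mitochondrial membrane. Complex I and complex II feed electrons to ubiquinone, complex III passes them to cytochrome c, complex IV hands them to oxygen, and complex V makes ATP from the proton gradient that complexes I, III and IV build. All complexes but complex II hold subunits of the nuclear and of the mitochondrial genome, and cytochrome c oxidase is known for nuclear subunits that exist as separate muscle, testis and ubiquitous isoforms.

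Short runs of promoter sequence are shown first, because some of the members carry binding-site letters that are classical for this gene group. Of the 84 members, 66 had a RefSeq promoter of 250 bases before to 50 bases after the start (GRCm38.p6). Motif letters were searched on both strands. The core of the NRF1 motif, GCATGCGC, was in 10 of these 66 promoters (15.2%), against 3.05% of the promoters of all genes and 3.94% of those of protein-coding genes. These 10 were Atp5g2, Atp5k, Atp5l, Cox6a1, Ndufa11, Ndufa6, Ndufa8, Sdhb, Uqcr11 and Uqcrc1. In the windows below, written 5′ to 3′ on the strand of the gene, the capitals mark the letters or their reverse complement, and 1 member is shown per complex, that with the highest wild-type heart level.
Ndufa6 (complex I, chr15:82354356-82354385, minus strand, 83 bases upstream of the start): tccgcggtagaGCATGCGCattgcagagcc
Sdhb (complex II, chr4:140961206-140961235, plus strand, 54 bases upstream): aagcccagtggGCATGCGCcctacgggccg
Uqcr11 (complex III, chr10:80406807-80406836, minus strand, 4 bases upstream): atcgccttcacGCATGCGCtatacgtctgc
Cox6a1 (complex IV, chr5:115349102-115349131, minus strand, 162 bases upstream): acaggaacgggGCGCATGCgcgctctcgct
Atp5k (complex V, chr5:108434431-108434460, minus strand, 50 bases upstream): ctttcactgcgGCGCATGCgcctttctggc
In Cox6a1 and Atp5k the letters were present on both strands and overlapped themselves.

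The YY1 letters AAGATGGC were in 9 of the 66 promoters (13.6%), against 3.19% of all and 3.57% of protein-coding promoters. They were in Atp5j, Atp5j2, Ndufa3, Ndufa9, Ndufb8, Ndufc1, Ndufs4, Ndufs6 and Ndufs7, and 0 promoters held both the NRF1 and the YY1 letters. The ERR letters TCAAGGTCA were in 2 promoters (3.03%, against 0.466% of all and 0.377% of protein-coding promoters), those of Sdhd and Atp5g3. Windows of the same kind follow.
Ndufs6 (YY1, chr13:73328433-73328462, minus strand, 34 bases after the start): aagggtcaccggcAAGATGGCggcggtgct
Atp5j (YY1, chr16:84835046-84835075, minus strand, 88 bases upstream): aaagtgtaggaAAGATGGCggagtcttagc
Sdhd (ERR, chr9:50603800-50603829, minus strand, 37 bases after the start): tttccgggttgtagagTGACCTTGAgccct
Atp5g3 (ERR, chr2:73911359-73911388, minus strand, 52 bases upstream): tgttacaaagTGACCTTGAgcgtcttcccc
The ETS letters CCGGAAGT were in 5 promoters (7.58%, against 4.31% of all and 5.69% of protein-coding promoters), those of Atp5h, Cox8a, Ndufs3, Uqcr11 and Uqcrh. The Sp1 letters GGGCGG were in 26 (39.4%, against 38.2% and 49.2%). A match describes letters in this window and is not a binding site, and no match says only that these letters are not in it.

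Among wild-type tissues the members were highest in heart and lowest in testes. Together the 84 members summed to 54778 TPM in heart, which was 5.48% of all transcripts, and to 10403 TPM in testes, which was 1.04%. The other tissues lay between 12883 TPM (1.29%) in spleen and 22040 TPM (2.20%) in brain, with liver at 17746 TPM, eyes at 19777 TPM, prostate at 21057 TPM and MEFs at 16323 TPM. Of the 84 members, 69 had their highest level in heart, and 54 had their lowest in testes. In whole tissue, fewer cells of a type and less RNA per cell cannot be told apart, and the testes table was made separately from that of the other tissues.

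The distance of heart from the other tissues was not the same for all complexes. Summed over complex I, the first and largest complex of the chain, heart held 14383 TPM, 1.96-fold over the next tissue, prostate, with 7327 TPM, and 4.70-fold over testes with 3060 TPM. Complex II, succinate dehydrogenase, summed to 2570 TPM in heart and 1273 TPM in liver, 2.02-fold apart, and to 334 TPM in testes. Complex III was at 7518 TPM in heart, 2.64-fold over prostate with 2850.5 TPM. Complex IV was at 17735 TPM in heart, 2.74-fold over prostate with 6480 TPM. Complex V, ATP synthase, was at 12572 TPM in heart, 2.44-fold over brain with 5156 TPM, and at 1664 TPM in testes, 7.55-fold below heart. Complex IV took 39.5% of the members' transcripts in testes and 23.6% to 32.4% in the other tissues, while complex V took 17.2% to 25.9% outside testes and less than that in testes.

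**Figure D1:**
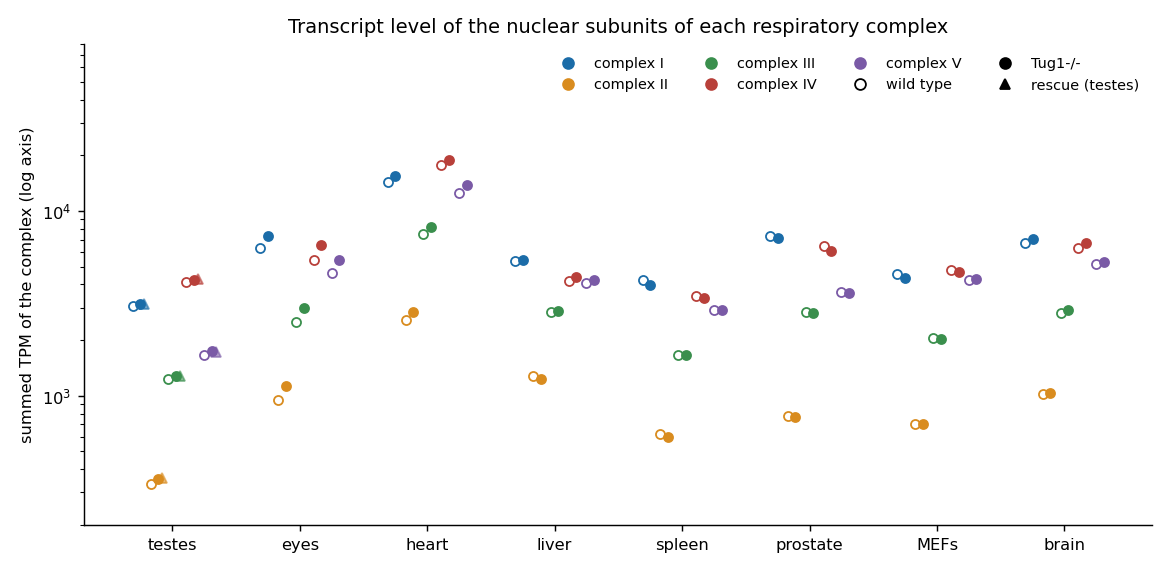
Summed TPM of the members of complexes I to V (log axis) in 8 tissues, with open circles for wild type, filled circles for Tug1-/- and triangles for rescue testes, each a sum of group means with no error bar. Heart is the highest tissue for every complex, and in eyes each filled circle lies above its open circle, from 6261 to 7347 TPM for complex I.

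From the members, 10 subunits were chosen by hand to stand for the complexes: Ndufs1, Ndufv1, Sdha, Sdhb, Cyc1, Uqcrfs1, Atp5a1, Atp5b and, for complex IV, whose catalytic subunits are mitochondrial genes, Cox4i1 and Cox5a. These are not all of the catalytic or core subunits. All 10 were highest in heart. Atp5a1 and Atp5b, the alpha and beta subunits of the ATP synthase head, were at 2625 and 2409 TPM in heart, 1147 and 1177 TPM in brain, and 245 and 362 TPM in testes. Atp5b was the highest member in eyes (1058 TPM) and MEFs (1071 TPM), and Atp5a1 in liver (854 TPM) and spleen (581 TPM). Cyc1, the cytochrome c1 of complex III, ranged from 64.1 TPM in testes to 1198 TPM in heart, and Uqcrfs1, the Rieske iron-sulfur protein, from 148 TPM in spleen to 957 TPM in heart. Sdha, the flavoprotein of complex II, was at 113 TPM in testes and 754 TPM in heart. Ndufs1, an iron-sulfur subunit of complex I, was lowest in prostate with 21.4 TPM and reached 173 TPM in heart.

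In TPM, some members stood far below the partners with which they are assembled. In heart Atp5l, the g subunit of ATP synthase, was at 10.98 TPM and Ndufb2 and Ndufb4, accessory subunits of complex I, were at 31.6 and 50.05 TPM, while the median member was at 446 TPM. The reads had been counted only where they mapped to 1 place, and of all the 50-base stretches in its longest coding transcript, Atp5l shared 68.5% with transcripts of other genes, and each of those stretches was also in an annotated pseudogene. The share was 37.0% for Ndufb4 and 2.29% for Ndufb2, while it was 47.9% for Atp5h and 43.2% for Uqcrb, which were at 713 and 770 TPM in heart. It was under 10% for 66 of the 84 members, of which the 65 listed in heart had a median of 499 TPM there, and from 10% to under 50% for 17, with a median of 395 TPM. The levels of the members with a high share are uncertain. Counts did not follow TPM for these genes. In heart Ndufb2 had 3581 mean normalized counts over both groups, and its longest coding transcript had 4371 bases. Ndufs5 had 3053 counts at 164 TPM, with 680 bases. Atp5l had 1466 counts, with 544 bases. The part of the length used for TPM in these low levels was not tested.

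Isoforms of complex IV set the tissues apart most sharply. Cox6a2, Cox7a1 and Cox8b, the heart and skeletal muscle isoforms of subunits 6a, 7a and 8, were among the 4 highest members in heart with 3389, 2829 and 2548 TPM, beside Atp5a1. Cox6a2 (chr7:128205435-128206387) took 94.9% of the transcripts of the Cox6a family in heart and 47.6% in eyes, 7.57% in spleen and at most 1.79% in each other tissue where it was listed. Cox8b (chr7:140898945-140900446) took 88.2% of its family in heart, 34.0% in eyes and at most 0.321% elsewhere. Cox7a1 (chr7:30184144-30186078) took 73.2% in heart, 25.2% in eyes and at most 1.88% elsewhere, with Cox7a2 or Cox7a2l as the main transcript of the family in all tissues but heart. The ubiquitous partners did not share 1 pattern. Cox6a1 had its lowest level in heart (183 TPM) and its highest in brain (948 TPM), Cox8a was at 341 TPM in heart, lowest in testes (92.6 TPM) and highest in prostate (1564 TPM), where it was the highest member, and Cox7a2 was highest in heart (741 TPM) and lowest in spleen (239.7 TPM).

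The testis isoforms were as sharply placed. Cox8c (chr12:102899316-102900526) was the highest member in testes with 1442 TPM and was listed in no other tissue. Cox7b2 (chr5:71442824-71548205) was at 511 TPM in testes and at most 3.67 TPM elsewhere, and Cox6b2 (chr7:4751792-4753094) was at 396 TPM in testes and at 29.9 TPM in eyes, the next tissue. They took 94.0%, 96.7% and 85.2% of the transcripts of the Cox8, Cox7b and Cox6b families in testes, where the ubiquitous Cox8a, Cox7b and Cox6b1 were at 92.6, 17.7 and 68.9 TPM. Ndufa4l2, a paralog of Ndufa4 known for its induction under low oxygen, was at 57.2 TPM in testes, 64.5% of that family, and at 1.08 to 27.1 TPM elsewhere. The electron carrier showed the same split, with the testis cytochrome c Cyct at 263 TPM and the somatic Cycs at 22.5 TPM in testes.

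Other families varied less. Cox4i2, the lung isoform of subunit 4, was highest in eyes with 48.4 TPM (7.998% of its family) and took at most 1.42% of the family in the other tissues. Atp5g3 was the main transcript of the 3 genes for the c subunit of ATP synthase in every tissue, from 65.5% in testes to 87.0% in liver. Atp5g2 took its largest share of that family in MEFs with 22.2% (113 TPM), against 3.86% in heart, and Atp5g1 in testes with 20.9%. These shares rest on the length used for each gene. The longest coding transcript had 4715 bases for Atp5g1, 753 for Atp5g2 and 723 for Atp5g3.

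**Figure D2:**
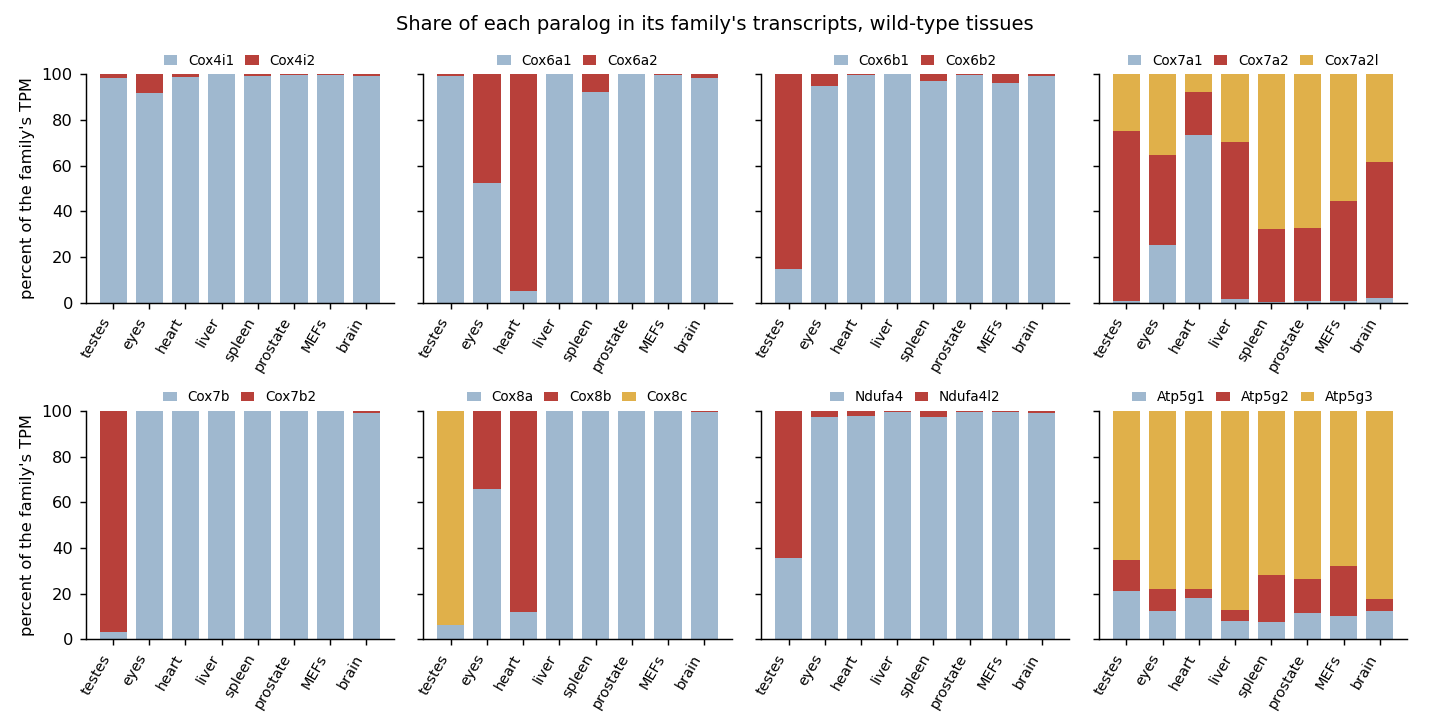
Percent of a paralog family's summed TPM taken by each paralog in wild-type tissues, for 8 families of complexes IV and V, with a paralog that is not listed in a tissue drawn as 0. The muscle isoforms Cox6a2, Cox7a1 and Cox8b fill 94.9%, 73.2% and 88.2% of their families in heart, and the testis isoforms Cox6b2, Cox7b2 and Cox8c fill 85.2%, 96.7% and 94.0% in testes.

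Comparison of Tug1-/- with wild type addressed how these genes differ when the locus is gone. Tug1 itself was at 10.1 to 57.5 TPM in the 8 wild-type groups, at 0.00832 to 0.885 TPM in Tug1-/- and at 1.605 TPM in rescue testes. The markers of each tissue's own cells were present in that tissue, from a summed 2750 TPM over 5 lymphocyte genes in wild-type spleen to 124288 TPM over 5 liver genes in wild-type liver. Ratios are on the log2(TPM + 0.1) scale for genes whose 2 means averaged at least 1 TPM, and a gene is counted as past the limit when it was at least 25% higher or 20% lower. Members listed but left out for a low level were Cox8b in testes and spleen, Cox7b2 in eyes, heart and prostate, Cox4i2 in liver and MEFs, and Cox6a2 in prostate. Not listed were Cox8c outside testes, Cox7b2 in liver, spleen and MEFs, Cox8b in liver and MEFs, and Cox6a2 in liver.

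Eyes were the tissue in which the members differed most as a group. Of 82 members, 75 were higher in Tug1-/- eyes and 7 lower, with a median log2 ratio of 0.24 (1.18-fold) and quartiles of 0.17 and 0.27, while the median of all 15076 protein-coding genes was -0.09. Among the members, 80 of 82 lay above that median. In heart, liver, spleen, prostate, MEFs, brain and testes the members' median lay between -0.06 and 0.11, and within 0.11 of the median of all genes. At most 3 members were past the limit in a direction in these tissues, where 1.97% to 13.5% of all genes were.

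**Figure D3:**
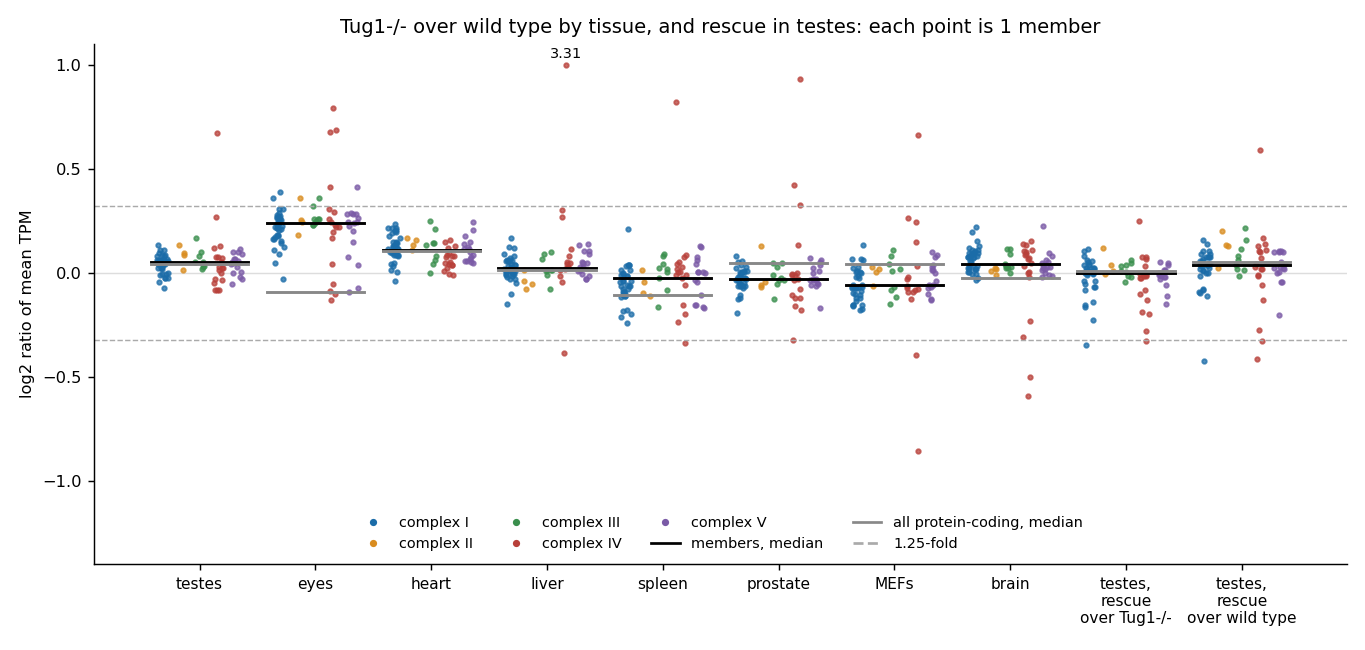
Log2 ratio of mean TPM for each member (1 point), coloured by complex, in 8 comparisons of Tug1-/- over wild type and 2 comparisons with rescue testes, with the members' median in black, the median of all protein-coding genes in grey and the limit dashed. In eyes the members' median is 0.24 and that of all genes -0.09, and the point written as 3.31 is Cox6b2 in liver, drawn at the edge of the axis.

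In eyes the difference was spread over all complexes. Complex I was higher in 34 of 35 members (median log2 ratio 0.22), complex II in 4 of 4 (0.25), complex III in 9 of 9 (0.26), complex IV in 14 of 18 (0.22) and complex V in 14 of 16 (0.24). The summed level went from 6261 to 7347 TPM for complex I, from 953 to 1128 TPM for complex II, from 2491 to 2999 TPM for complex III, from 5441 to 6553 TPM for complex IV and from 4632 to 5419 TPM for complex V, which is 17.0% to 20.4% more. All 10 chosen subunits were higher, by log2 ratios from 0.16 for Ndufv1, the flavoprotein that takes electrons from NADH, to 0.36 for Sdhb, the iron-sulfur subunit of complex II. Atp5a1 was at 959 TPM in the eyes of wild type and 1123 TPM without Tug1, and Cox4i1, the ubiquitous subunit 4 of cytochrome c oxidase, at 557 and 652 TPM.

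Past the limit were 10 of the 82 members in the higher direction (12.2%), where 5.67% of all protein-coding genes were, and 0 in the lower direction, where 7.81% were. With ratios centred on the median of all genes, 43 of the 82 were past it in the higher direction, where 8.11% of all protein-coding genes were. The 3 largest were the muscle isoforms. Cox7a1 was at 212 TPM in the eyes of wild type and 366 TPM without Tug1 (log2 ratio 0.79), Cox6a2 at 376 and 606 TPM (0.69), and Cox8b at 415 and 663 TPM (0.68). The ubiquitous partners differed less. Cox8a was at 804 and 734 TPM (-0.13, the lowest ratio of the 82 members) and Cox6a1 at 413 and 398 TPM (-0.05), while Cox7a2 was at 331 and 386 TPM (0.22). The muscle isoform took 60.3% of the Cox6a family in Tug1-/- eyes, after 47.6% in wild type, 47.5% of the Cox8 family after 34.0%, and 34.6% of the Cox7a family after 25.2%.

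The other 7 members past the limit were not muscle isoforms. They were Atp5g1, a gene for the c subunit of ATP synthase (55.3 and 73.5 TPM, log2 ratio 0.41), Cox7b (278 and 369 TPM, 0.41), Ndufa5 (162 and 212 TPM, 0.39), Uqcr11 (256 and 329 TPM, 0.36), Ndufb9 (345 and 444 TPM, 0.36), Sdhb (187 and 239.7 TPM, 0.36) and Uqcrfs1 (247 and 309 TPM, 0.32). The member just under the limit was Ndufb6, with 0.31. Without the 3 muscle isoforms, 79 members had a median of 0.23. Of the 10 members with the NRF1 letters in their promoters, Uqcr11 and Sdhb were past the limit, and the others ran from -0.09 for Atp5l and -0.05 for Cox6a1 to 0.28 for Atp5k. The 7 lower members were Cox8a, Cox4i2, Atp5l, Cox6b2, Atp5s, Cox6a1 and Ndufv3, and none of them was lower by more than 0.13.

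**Figure D4:**
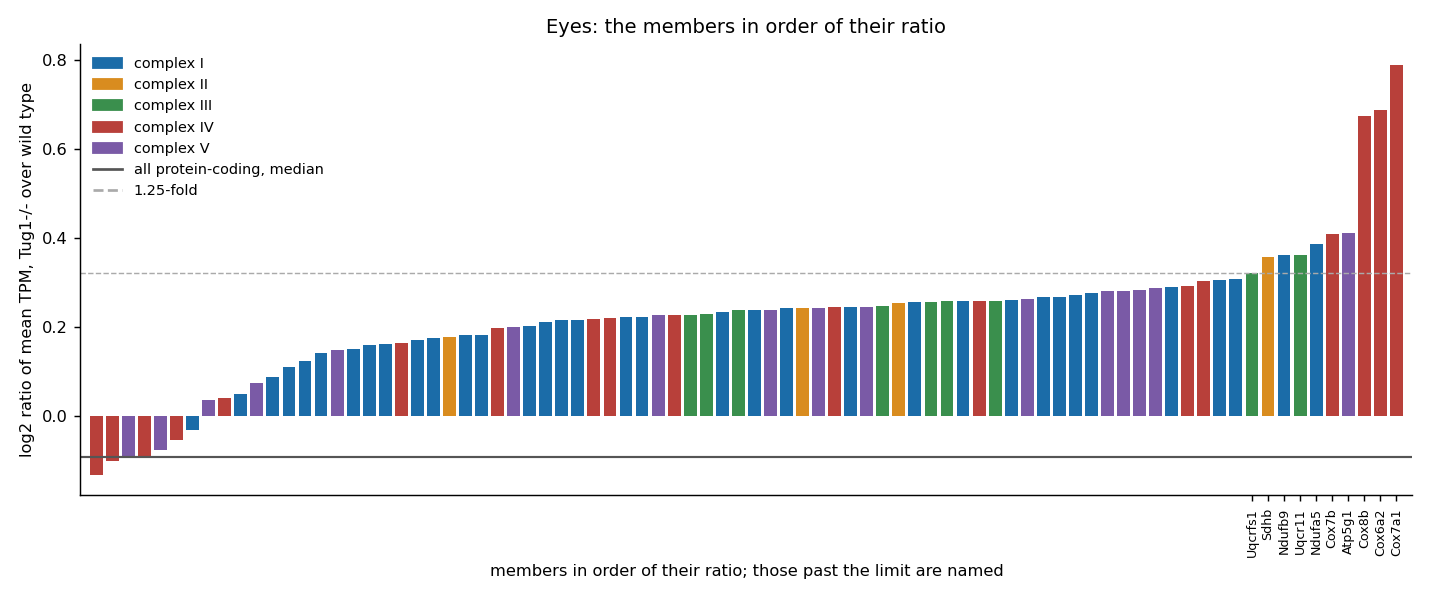
Log2 ratio of mean TPM, Tug1-/- over wild-type eyes, for the 82 members in order, coloured by complex and named where they passed the limit, with the median of all protein-coding genes as a solid line at -0.09 and the limit dashed. Cox7a1, Cox6a2 and Cox8b stand at the right end with 0.79, 0.69 and 0.68, and 75 of the bars point up.

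Markers of other cell types moved with these values in eyes. The 12 skeletal muscle genes were all higher, from a sum of 9897 to 17217 TPM, the 5 heart genes went from 267 to 487 TPM (4 of 5 higher), the 5 fat genes from 143 to 635 TPM (4 of 5) the 5 red cell genes from 699 to 2179 TPM (5 of 5) and the 5 macrophage genes from 194 to 237 TPM (5 of 5). The 10 photoreceptor genes were all lower, from 36849 to 32712 TPM, and the 4 corneal and epithelial genes went from 6947 to 4243 TPM (1 of 4 higher). No marker of these lists was at 0 in either eye group. Their part in the members' ratios was not tested. Of the 84 members, 62 encode proteins under 200 residues. By class of protein length, the median log2 ratios of members and of other genes in eyes were 0.26 against 0.0095 under 100 residues, 0.20 against -0.03 from 100 to under 200, 0.26 against -0.06 from 200 to under 400, and 0.22 against -0.12 at 400 or more.

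Other gene groups in eyes differed among themselves. The 44 assembly factors, which help to build the complexes without staying in them, had a median of -0.0047, with 20 higher and 24 lower. The 83 cytosolic ribosomal protein genes, another large group of abundant short transcripts, had a median of 0.08, with 77 higher and 6 lower and 1 past the limit. Of the protein genes of the mitochondrial genome, 8 reached 1 TPM and all 8 were higher (median 0.33, 4 past the limit, where 5.67% of all genes were). The whole mitochondrial genome went from 9.43% to 11.8% of transcripts. Cycs, the somatic cytochrome c, was at 52.8 and 71.0 TPM (0.43). The subunit genes outside the name rule were at 416 and 504 TPM for Usmg5 (0.27), 199.9 and 237 TPM for 2010107E04Rik (0.24) and 17.3 and 17.7 TPM for Ndufab1 (0.03).

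In heart the members' median lay close to that of all genes. The median log2 ratio was 0.11 over 82 members, 78 of them higher, but the median of all 12095 protein-coding genes was also 0.11, so that the members were 0.0048 above it and 42 of 82 lay above it. The mitochondrial genome took 47.5% of transcripts in wild-type and 43.8% in Tug1-/- heart. With TPM rescaled over the nuclear protein-coding genes, the median of all genes was 0.0057 and 44 of 83 members were higher. By class of protein length, from the shortest to the longest, the medians of members and of other genes were 0.06 against 0.05, 0.11 against 0.07, 0.13 against 0.09 and 0.19 against 0.13. No member was past the limit in either direction, where 5.65% of all genes were higher and 2.99% lower. By complex the medians were 0.12 for complex I, 0.14 for complex II, 0.13 for complex III, 0.06 for complex IV and 0.11 for complex V. The 10 chosen subunits lay between 0.11 and 0.21, with Cyc1 at 1198 and 1386 TPM (0.21). The highest ratios were those of Uqcrc1, a core protein of complex III (532 and 633 TPM, 0.25), and Atp5g1 (262 and 310.4 TPM, 0.24), and the lowest those of Ndufa1 (891 and 867 TPM, -0.04) and Cox7c, a small subunit of complex IV (-0.01). The muscle isoforms were at 3389 and 3599 TPM for Cox6a2, at 2829 and 3150 TPM for Cox7a1 and at 2548 and 2620 TPM for Cox8b (0.04). Beside these, the 5 heart genes went from 24409 to 28275 TPM and the 5 macrophage genes from 177 to 235 TPM, all higher. The 5 fat genes went from 263 to 162 TPM and the 5 red cell genes from 44624 to 34952 TPM, all lower. The 5 lymphocyte genes went from 27.1 to 14.1 TPM (0 of 5 higher). The part of these lists was not tested.

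In testes the members differed little between genotypes. Of 83 members, 63 were higher in Tug1-/- testes, with a median log2 ratio of 0.05 where all 15047 genes had 0.04, and 47 of 83 lay above that median. By complex the medians ran from 0.02 for complex IV to 0.09 for complex II, whose 4 members were all higher. The testis isoforms were nearly level, with Cox8c at 1442 and 1466 TPM, Cox7b2 at 511 and 530 TPM and Cox6b2 at 396 and 417 TPM. Past the limit was 1 member, the muscle isoform Cox7a1, at 3.86 and 6.22 TPM (0.67), where 6.39% of all genes were past it in the higher direction and 4.79% in the lower, with 0 members. Next came Cox6a2 with 1.90 and 2.31 TPM (0.27), and the lowest ratios were those of Cox8a and Ndufa4, both -0.08. The 12 skeletal muscle genes were all higher beside these, from a sum of 16.9 to 76.9 TPM, and so were the 4 Leydig cell genes, from 440.3 to 666 TPM, and the 5 macrophage genes, from 52.6 to 67.9 TPM. The 5 heart genes went from 44.2 to 51.9 TPM and the 5 seminal vesicle genes from 9.61 to 15.1 TPM, all higher. The part of these lists was not tested. The 5 testis genes went from 49235 to 46767 TPM.

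Rescue testes were set beside the others to see how these levels stood with transgenic Tug1 RNA. Rescue mice also carried the driver and were fed doxycycline, and the sources used here describe no Tug1-/- group fed doxycycline. The parts of the RNA, the driver and the diet cannot be told apart. The members' median was -0.0015 over Tug1-/- testes, with 39 higher and 44 lower of 83, and 0.04 over wild type, with 63 of 83 higher but 35 of 83 above the median of all genes. These comparisons share the Tug1-/- and the wild-type libraries with that above, so they are not independent of it. Past the limit in the lower direction against Tug1-/- were 2 members (5.19% of all genes), Ndufb11, an accessory subunit of complex I, and Cox8a. Past it in the higher direction were 0 (0.868% of all genes), where the highest ratios were those of Cox4i2 (4.03 and 4.81 TPM, 0.25) and Sdhc (38.72 and 42.05 TPM, 0.12). Ndufb11 was at 45.9 TPM in wild-type, 43.6 TPM in Tug1-/- and 34.2 TPM in rescue testes, and Cox8a at 92.6, 87.3 and 69.5 TPM. Against wild type, Ndufb11 (-0.42), Cox8a (-0.41) and Cox7b (-0.33) were past the limit in the lower direction (7.61% of all genes) and Cox7a1 in the higher (0.59, at 5.86 TPM in rescue, 5.95% of all genes), followed by Cyc1 (64.1 and 74.4 TPM, 0.21).

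Among the members lower in rescue testes were Cox8a, Cox7b and Cox6b1, each from a family with a testis isoform, and Ndufa4, the partner of Ndufa4l2, all 4 chosen after their values were seen. Cox8a took 6.03% of its family in wild-type, 5.62% in Tug1-/- and 4.31% in rescue testes, Cox7b 3.34%, 3.12% and 2.63%, Cox6b1 14.8%, 14.8% and 13.2%, and Ndufa4 35.5%, 34.7% and 30.6%. Cox8c was at 1543 TPM, Cox7b2 at 520.2 TPM and Cox6b2 at 436 TPM in rescue. After these values were seen, the place of the genes was looked up: Ndufb11, Cox7b and Ndufa1 are the 3 members on the X chromosome, and all 3 were lower in rescue than in Tug1-/- testes, by log2 ratios of -0.35, -0.28 and -0.23. The other 609 genes of the X chromosome had a median of -0.03 in that comparison, and 7.55% of them were past the limit in the lower direction. In rescue testes the Leydig cell genes summed to 556 TPM, the skeletal muscle genes to 22.2 TPM and the macrophage genes to 72.4 TPM. The heart genes summed to 53.9 TPM and the testis genes to 45544 TPM. The part of these lists was not tested.

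In liver the members' median was 0.02 beside 0.01 for all 10719 genes, with 55 of 79 higher, or 46 of 79 with TPM rescaled over the nuclear protein-coding genes. Past the limit were 1 member higher, where 8.47% of all genes were, and 1 lower, where 5.68% were. The first was the testis isoform Cox6b2, at 0.280 TPM in the liver of wild type and 3.65 TPM without Tug1 (log2 ratio 3.31 with the 0.1 TPM added, 1.86 with 1 TPM added and 3.71 with none), a gene with a mean of 39.1 normalized counts over the libraries that reached the 1 TPM minimum through the Tug1-/- mean. The second was Ndufa4l2, at 2.72 and 2.06 TPM (-0.38). Cox7a1 was at 6.78 and 8.37 TPM (0.30), and the lowest ratio after Ndufa4l2 was that of Ndufb3, an accessory subunit of complex I (138 and 125 TPM, -0.15). Among members above 10 TPM, the highest ratio was that of Cox8a with 592 and 713 TPM (0.27). The complexes lay between -0.05 for complex II and 0.04 for complex IV, and the 10 chosen subunits between -0.08 for Sdha and 0.11 for Atp5b. The 5 macrophage genes went from 125 to 177 TPM in liver, all higher, and their part was not tested.

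Cox6b2 also stood out in spleen and in MEFs, in opposite directions. It was at 13.6 TPM in the spleen of wild type and 24.1 TPM without Tug1 (0.82), and at 25.9 and 14.2 TPM in MEFs (-0.86). In the other tissues it was at 2.50 and 3.16 TPM in prostate (0.33), 29.9 and 28.1 TPM in eyes, 3.64 and 3.73 TPM in heart and 7.19 and 7.74 TPM in brain. The ubiquitous Cox6b1 differed by at most 0.12 in these tissues other than eyes, with 461 and 457 TPM in spleen and 695 and 651 TPM in MEFs.

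In spleen the members were a little lower as a group, but less so than other genes. Their median was -0.03 over 81 members, 31 of them higher, where all 13076 genes had -0.10, so that 61 of 81 lay above that median. Complex I was lower in 28 of 35 members, where only 28.0% of all genes were higher, and its median of -0.06 lay above that of all genes. Complex III (0.02) and complex V (-0.00019) were level. Past the limit were Cox6b2 in the higher direction (7.48% of all genes) and Cox7a1, at 3.38 and 2.66 TPM, in the lower (13.5%). Among abundant members, Ndufs8, an iron-sulfur subunit of complex I, was at 211 and 178 TPM (-0.24) and Ndufb9, an accessory subunit, at 163 and 188 TPM (0.21). The 5 red cell genes went from 24887 to 44736 TPM, all higher, the 5 lymphocyte genes from 2750 to 2118 TPM (1 higher) and the 5 macrophage genes from 1620 to 1548 TPM (all lower). The 5 fibroblast genes went from 255 to 205 TPM and the 5 liver genes from 21.9 to 0.254 TPM (0 of 5 higher in each). The 4 prostate genes listed went from 0.488 to 69.2 TPM (2 of 4 higher). The part of these lists was not tested.

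In prostate and MEFs the members lay below other genes, by less within classes of protein length than over all genes. In prostate, with 3 wild-type and 2 Tug1-/- samples, the median was -0.03 over 81 members, 27 of them higher, where all 12487 genes had 0.05, and 13 of 81 lay above that median. With TPM rescaled over the nuclear protein-coding genes, 9 of 81 were higher. From the shortest to the longest of the 4 length classes, the medians of members and of other genes in prostate were -0.04 against 0.0048, -0.04 against 0.0036, 0.0052 against 0.04 and 0.03 against 0.06. All members past the limit there were low: Cox8b (0.938 and 1.88 TPM, log2 ratio 0.93, or 0.57 with 1 TPM added, a gene with a mean of 6.13 normalized counts that reached the 1 TPM minimum through the Tug1-/- mean), Ndufa4l2 (1.56 and 2.13 TPM) and Cox6b2 in the higher direction (10.2% of all genes) and Cox7a1 (5.65 and 4.50 TPM, -0.32, at the limit itself) in the lower (2.23%). Next was Ndufb4 with 30.4 and 26.5 TPM (-0.19). Cox4i1 was at 843 and 745 TPM (-0.18) and Cox5a, another nuclear subunit of complex IV, at 77.0 and 69.0 TPM (-0.16), while Sdha was at 143 and 156 TPM (0.13). Seminal vesicle secretory genes went from 19894.5 to 59312 TPM (3 of 5 higher) fat genes from 78.8 to 414 TPM (4 of 4 listed), red cell genes from 161 to 292 TPM (5 of 5) and macrophage genes from 87.1 to 136 TPM (5 of 5), beside prostate genes at 88543 and 80881 TPM, and their part was not tested.

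In MEFs the median was -0.06 over 80 members, 30 of them higher, where all 12105 genes had 0.04, and 13 of 80 lay above that median. With TPM rescaled in the same way, 20 of 80 were higher. By length class, in the same order, the medians in MEFs were -0.09 against -0.05, -0.06 against -0.0083, 0.0034 against 0.02 and 0.03 against 0.07. Complex I was lower in 26 of 35 members, where 59.8% of all genes were higher. Against that, Cox5a (109 and 129 TPM, 0.24) and Cox5b (151 and 181 TPM, 0.26), the nuclear subunits 5a and 5b of cytochrome c oxidase, had the highest ratios among members above 10 TPM. Past the limit were Cox6a2 in the higher direction (2.06 and 3.32 TPM, 7.66% of all genes) and Cox6b2 and Cox7a1 (5.46 and 4.12 TPM) in the lower (7.81%). The 13 protein genes of the mitochondrial genome were all lower (median -0.55, 11 past the limit). They include mt-Co2, mt-Co3, mt-Atp6 and mt-Atp8, whose levels are not usable, as given below. The whole mitochondrial genome went from 4.91% to 3.45% of transcripts. The 5 genes chosen to mark fibroblasts went from 11061 to 10323 TPM and the 5 macrophage genes from 244 to 198 TPM, each with 1 of 5 higher, and their part was not tested.

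In brain the members were slightly higher, with a median of 0.04 over 83 members, 67 of them higher, where all 14174 genes had -0.02, and 77 of 83 lay above that median. Complex I was higher in 31 of 35 members (median 0.07), where 38.9% of all genes were higher. No member was past the limit in the higher direction (1.97% of all genes). In the lower direction (3.01%) were Cox4i2 (5.43 and 3.57 TPM, -0.59) and the muscle isoform Cox8b (4.24 and 2.97 TPM, -0.50). The highest ratios were those of Atp5g2 (26.0 and 30.5 TPM, 0.23) and Ndufs5, a small accessory subunit of complex I (133 and 155 TPM, 0.22). Cox4i1 was at 775 and 853 TPM (0.14). The 5 brain genes were all lower, from a sum of 3998 to 3793 TPM, the 5 red cell genes all higher, from 221 to 253 TPM, and the macrophage genes went from 191.03 to 199.01 TPM (4 of 5 higher), and their part was not tested.

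The mitochondrial genome encodes the remaining subunits of complexes I, III, IV and V. Its protein genes that reached 1 TPM had medians of 0.33 in eyes, 0.03 in testes and prostate, 0.02 in brain, -0.12 in liver, -0.17 in heart, -0.31 in spleen and -0.55 in MEFs. In rescue testes the median was 0.18 over Tug1-/-, with 7 of 8 higher and 3 past the limit, where 0.868% of all genes were past it in that direction. Over wild type it was 0.28, with 8 of 8 higher and 4 past the limit, where 5.95% of all genes were. The transgene, the driver and the diet cannot be told apart here either. Beside these, mt-Co2, mt-Co3, mt-Atp6 and mt-Atp8 were at most at 16.4 TPM in any wild-type tissue, where mt-Co1 was at 6624 to 147917 TPM, so their levels in these tables are not usable. They are among the genes behind the medians of heart, MEFs and brain, and behind the counts of lower genes in MEFs. The 44 assembly factors (43 in MEFs) had medians of 0.13 in heart, 0.07 in testes and -0.07 in spleen, and within 0.03 of 0 in the other tissues.

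Depth differed for brain. The mean normalized counts summed to 38666994 (MEFs) to 48341823 (eyes) in the tissues of the series and to 17573743 in brain, and the depth of the testes libraries is unknown. The median member had 1412 mean normalized counts in brain and 2325 to 15196 in the other tissues. The members with few counts were isoforms outside their own tissue, such as Cox7b2 in eyes with 1.57.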

How the data were processed

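RNA was isolated with TRIzol, poly(A) RNA libraries were made with the TruSeq kit and sequenced as paired ends, and base calls were handled with CASAVA 1.8.2 per the labels. The authors aligned the reads to GRCm38 with STAR, counted uniquely mapped reads on GENCODE vM16 with featureCounts and computed TPM; these versions, and whether strand was used, are not given in the sources used here. The 2 deposited tables hold group means of TPM for each tissue, with the mean normalized count over both groups in the tissue table. They further hold the authors' own comparisons from DESeq2 (fold changes, standard errors, statistics and p-values), and none of these columns was used. Group means carry no spread, so no test was run. The 6 testes samples of F1 hybrids were not analysed here.

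For each comparison log2((a + 0.1)/(b + 0.1)) was computed over protein-coding genes with a mean of both groups of at least 1 TPM, and the limit was 25% higher or 20% lower. Named were the isoform families, 10 chosen subunits (1 further choice is not reported here), the 2 highest and 2 lowest members of each comparison, and the highest member of each tissue. Other members were named after their values were seen, where they were past the limit in eyes or stood out in sequence or level. Members and lists were chosen with earlier results of these data known. Alternatives were pseudocounts of 1 and none, centring, TPM rescaled over nuclear protein-coding genes, minima of none and 10 TPM, 3 changes of membership and limits of 1.5-fold and 1.1-fold. Coding lengths and transcripts came from GENCODE M21 (GRCm38) and promoters from RefSeq (GRCm38.p6). Ratios were checked on simulated data. The tools were Python 3.11.15, numpy 2.4.6, pandas 2.3.3 and matplotlib 3.10.9.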

Additional observations from a re-analysis of the deposited data

How the results depend on the processing

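Of 90 medians of the members under the alternatives, 88 moved by less than 0.1 and 2 by more: centred on all protein-coding genes, heart went to 0.0048 and spleen to 0.079. Of 220 counts past the limit, 163 stayed within 1.5 times. Shares in brackets are those of all protein-coding genes past the limit in the same setting. Centring gave 43 members higher in eyes (8.11%) and 0 lower in spleen (6.72%). A pseudocount of 1 TPM gave 0 lower in liver (3.82%), spleen (9.9%) and prostate (1.3%) and 1 higher in prostate (7.54%). With no minimum, 2 were higher in testes (8.59%), in liver (12.2%) and in rescue over wild type (7.72%), and 5 in prostate (14.5%). A minimum of 10 TPM gave 0 in each count of testes, liver, spleen, prostate, MEFs, brain and rescue over wild type (higher), except 1 higher in spleen (6.37%) and 1 lower in MEFs (3.74%). Under that minimum the shares of all genes in these counts ran from 0.369% to 8.52%. Leaving out the tissue isoforms gave 0 in each of the same counts, where the shares of all genes ran from 1.97% to 13.5%. Without the names that are not subunits, 0 were lower in liver (5.68%). A limit of 1.5-fold gave 3 higher in eyes (2.61%) and 1 in prostate (3.89%), and 1 lower in MEFs (2.78%) and in brain (0.734%) and 0 lower in liver (1.61%), spleen (2.44%), prostate (0.48%), rescue over Tug1-/- (2.12%) and rescue over wild type (4.4%). A limit of 1.1-fold gave, higher, 3 in testes (20.8%), 68 in eyes (12.5%), 26 in heart (39.7%), 5 in liver (22.5%), 2 in spleen (13.7%), 4 in MEFs (30.6%), 6 in brain (7.7%), 1 in rescue over Tug1-/- (8.61%) and 8 over wild type (25.6%), and, lower, 2 in liver (19.2%), 14 in spleen (42.4%), 5 in prostate (9.73%), 10 in MEFs (18.5%), 4 in brain (13.6%), 10 in rescue over Tug1-/- (14.4%) and 5 over wild type (15%). Of the members' medians, 3 changed sign: spleen as above (-0.03 uncentred), rescue over wild type with centring (0.04 to -0.01) and rescue over Tug1-/- with TPM rescaled over nuclear protein-coding genes (-0.0015 to 0.0016). Of 300 medians of a complex 11 moved by 0.1 or more, and of 1116 values of single members 65 did. No named member past the limit changed sign.

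No paired analysis was possible because the TPM columns used here are group means without values of single samples, and for the same reason leaving out replicates was not run. Depth limits the isoforms outside their own tissue, at a few counts.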
